A study of Homo sapiens with 6 samples.

Results

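The genes described here are the heat shock proteins and the DNAJ co-chaperones of PC-9 cells, a human lung adenocarcinoma line with an activating EGFR mutation. They were chosen by gene symbol alone: the HSPA, HSPB, HSPD1, HSPE1, HSPH1, HSP90AA1 and HSP90AB1 symbols and the numbered DNAJA, DNAJB and DNAJC symbols, without the ER genes HSPA5, DNAJB9, DNAJB11 and DNAJC3. The rule found 67 of the 26334 gene symbols of the deposited tables, with 116 of the 51398 RefSeq isoforms. RNA-Seq was performed on untreated PC-9 cells, kept in RPMI with 10% FBS. The control cells carried a scrambled shRNA (shScr), and the others carried shRBM10#1 or shRBM10#2, distinct hairpins that target the splicing factor RBM10, with 2 libraries for each and 6 in all. The control is shScr by its labels, although parental cells are given as the control in the methods. No label says that libraries of a condition came from separate cultures, so p-values measure only the spread between these libraries. The design asks what each shRNA changed against shScr and whether the shRNAs changed the same things.

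Heat shock proteins are molecular chaperones, named for the genes first seen to rise when cells are heated. HSP70 proteins (the HSPA genes) bind and release unfolded stretches of protein as they split ATP, J-domain proteins (the DNAJ genes, also called HSP40) bring them clients and start ATP hydrolysis, and HSP110 proteins (HSPH1, HSPA4 and HSPA4L) help them release ADP. HSP90 acts later, on nearly folded clients, which include kinases such as mutant EGFR. Small heat shock proteins (the HSPB genes) hold unfolding proteins without ATP, and HSPD1 with HSPE1 form the folding chamber of mitochondria. Some members are made at all times, and others rise under stress through the transcription factor HSF1, which binds repeats of the letters GAA and TTC in their promoters.

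Library totals were 31953729 to 37557507 expected counts, the estimated number of fragments per gene that RSEM gives. The members held 1.47% to 1.61% of them. RBM10 itself had 83.2 and 86.2 CPM in shScr, 59.8 and 56.4 CPM for shRBM10#1 and 27.2 and 26.9 CPM for shRBM10#2 (CPM, counts scaled to a common library size after TMM scaling). It fell with shRBM10#1 (log2 FC -0.54 ± 0.067 (SE), FDR = 0.000228) and further with shRBM10#2 (log2 FC -1.65 ± 0.07 (SE), FDR = 5.10e-08), and the difference between the shRNAs also passed the test (log2 FC -1.11 ± 0.07 (SE), FDR = 3.65e-06). All 6 epithelial markers were above 1 TPM in each condition, none of the 5 lung lineage markers were, and the lung label rests on the name of the line. Fibroblast markers summed to at most 2.94 TPM and blood and endothelial markers to at most 2.47 TPM, with HBB at 0 throughout. The shScr library 2 stood apart in fragment length, with an implied mean of 231.2 nt against 264.8 to 281.2 nt in the other 5 libraries, and with the highest summed TPM of the members (11437 against 9497 to 10546). Its part in the results below was examined by leaving it out. Fragment length also enters an offset for effective length, the length of a gene's isoforms allowing for the fragments of each library. It was not tested otherwise.

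PC-9 cells expressed most of the family. Of the 67 members, 57 passed the filter on low counts, 10 did not, and 2 of those 10 (DNAJB8 and HSPB2) were at 0 in every library. The levels in this paragraph are means of the 2 shScr libraries in TPM, an abundance scaled to the library total, which divides by length and so allows genes to be compared. The cytosolic HSP90 genes were highest, HSP90AA1 at 2470 ± 469 and HSP90AB1 at 1627 ± 135 (SD, n = 2). They were followed by HSPD1 of the mitochondrial chaperonin (1021 ± 117) and the small heat shock protein HSPB1 (1007 ± 59.5), which did not differ beyond their spread. Among the HSP70 genes, the constitutive cytosolic HSPA8 had 772 ± 142 and the stress-inducible HSPA1A 692 ± 109.7. These means were again within their spread, but HSPA8 was the higher in each shScr library (672 against 614 and 872 against 769). HSPE1, the lid of the mitochondrial chamber, had 602 ± 24.2, HSPA1B 399 ± 70.4 and the mitochondrial HSPA9 215 ± 21. The highest J-domain genes were DNAJB1 (177 ± 15.9), DNAJA1 (149 ± 17.6), DNAJB6 (117 ± 11.2) and DNAJA2 (112 ± 12.5), and the highest of the DNAJC class were DNAJC5 (88.3 ± 13.5) and DNAJC7 (80.0 ± 3.96). Of the HSP110-type genes, HSPA4 had 126 ± 20.9 and HSPH1 76.4 ± 13.6. In shScr, 15 members were above 100 TPM and 17 below 1 TPM. The 5 highest members of a library held 63.3% to 65.3% of the summed TPM of the members.

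**Figure D1:**
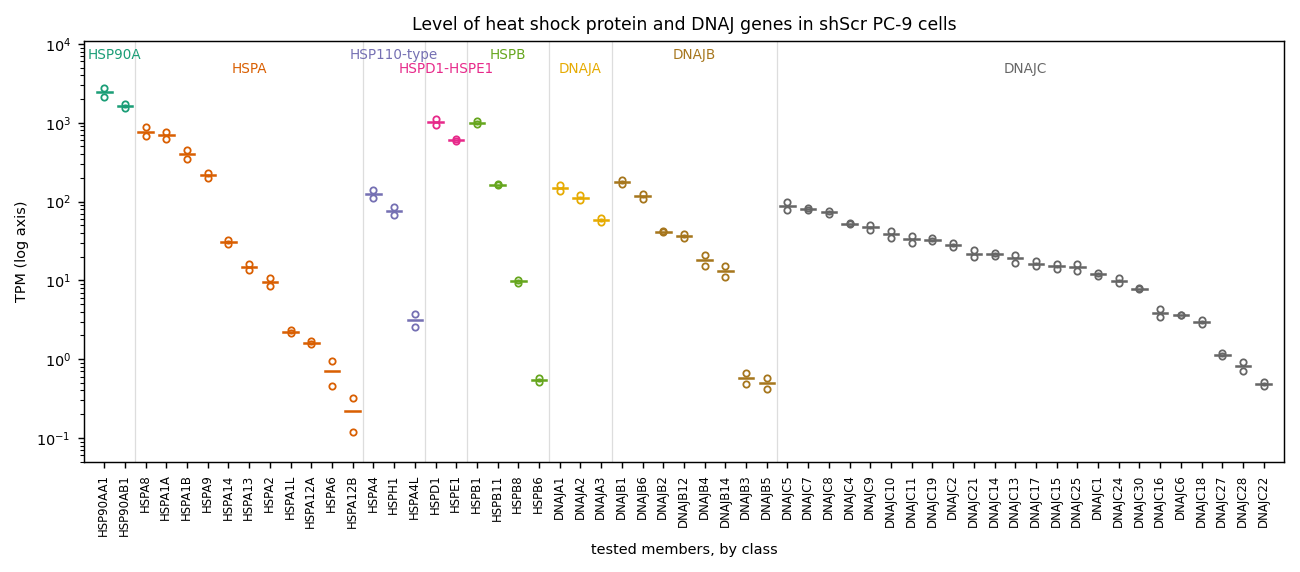
TPM (log axis) of the 57 tested members in shScr cells, grouped by class and ordered by level. Circles are the 2 libraries and bars their mean, and the classes range from HSP90AA1 at 2470 TPM to HSPA12B at 0.22 TPM.

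Each shRNA changed members in both directions, by small amounts. A gene was called at an FDR below 0.05 in edgeR's quasi-likelihood test, adjusted over all 14217 genes tested. With shRBM10#1, 8 of 57 members were called, 4 higher and 4 lower, where 14.0% of all genes tested were called (7.13% higher and 6.91% lower). With shRBM10#2, 17 members were called, 7 higher and 10 lower, where 25.9% of all genes were called (12% higher and 13.9% lower). Between the shRNAs, 19 members differed, 8 higher and 11 lower with shRBM10#2, where 25.5% of all genes differed (11% higher and 14.5% lower). The shares of members called were 14%, 29.8% and 33.3% and lay near those of all genes. The median log2 FC of the members was 0.02 with shRBM10#1 and -0.0064 with shRBM10#2, beside 0.0079 and 0.0054 for all genes. Under the study's criteria, which add an absolute log2 FC above 1, only HSPB8 with shRBM10#1 was called, against 1.88%, 1.30% and 1.19% of all genes in the 3 comparisons.

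With at least 1 shRNA, 21 of the 57 members were called, and with both 4 were, where 33.3% and 6.62% of all genes were. HSPB8 and HSPH1 were lower with both, HSPA1A and HSPA1B were higher with shRBM10#1 and lower with shRBM10#2, and the other 17 passed the threshold with a single shRNA. The shRNAs were set against the same shScr libraries, so their log2 FC values are not independent of each other. When both shRNAs were pooled against shScr, no member was called by edgeR (4 at an unadjusted p below 0.05), where 1.62% of genes were called and 0.394% met both criteria. In that pooled comparison HSPB8 had log2 FC -0.76 ± 0.2 (SE), FDR = 0.0952, and DESeq2 called it alone. When the shRNA coefficients were averaged in edgeR instead, 7 members were called, HSPB8 (FDR = 0.000556), HSPB11 (FDR = 0.0073), HSPH1 (FDR = 0.0114), DNAJC13, DNAJC5, DNAJC1 and HSP90AB1. The share of all genes called by that average was not counted, and the 1.62% belongs to the pooled fit.

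**Figure D2:**
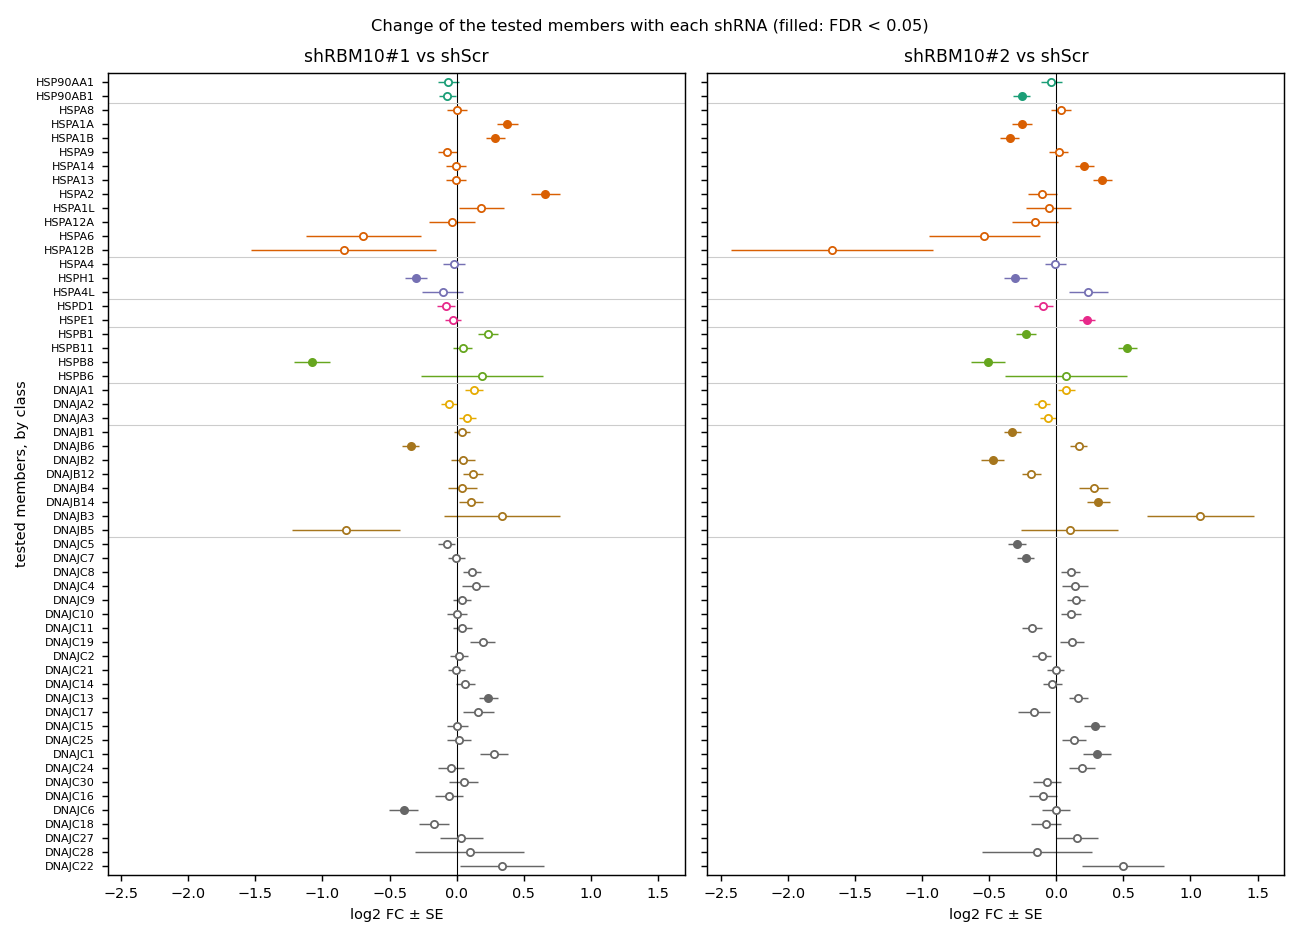
log2 FC with its SE (bars) of the 57 tested members for each shRNA against shScr, grouped by class as in the plot of levels. Filled circles are the 8 members called with shRBM10#1 and the 17 called with shRBM10#2, and most filled circles lie within 0.5 of 0.

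The inducible HSP70 genes moved in opposite directions with the shRNAs. HSPA1A (chr6:31815464-31817946, GRCh38) and HSPA1B (chr6:31827735-31830255) lie side by side on chromosome 6 and encode nearly the same protein, the HSP70 that stressed cells make. HSPA1A had 928 and 1022 CPM in shScr, 1256 and 1280 CPM for shRBM10#1 and 867 and 765 CPM for shRBM10#2. HSPA1B had 550.5 and 621 CPM in shScr, 737 and 694 CPM for shRBM10#1 and 472 and 449 CPM for shRBM10#2. For both genes, each shRBM10#1 library was above and each shRBM10#2 library was below the shScr libraries. Such separation, here and below, was common with 2 libraries per condition. Of all genes tested, 53.6% did not overlap between shRBM10#1 and shScr, 66.6% between shRBM10#2 and shScr and 65.1% between the shRNAs. HSPA1A rose with shRBM10#1 (log2 FC 0.38 ± 0.075 (SE), FDR = 0.00508) and fell with shRBM10#2 (log2 FC -0.26 ± 0.075 (SE), FDR = 0.0254). HSPA1B rose with shRBM10#1 (log2 FC 0.29 ± 0.073 (SE), FDR = 0.0192) and fell with shRBM10#2 (log2 FC -0.35 ± 0.073 (SE), FDR = 0.00483). The shRNAs differed from each other by -0.64 ± 0.076 for HSPA1A (FDR = 0.000236) and -0.64 ± 0.073 for HSPA1B (FDR = 0.000199). Reads of genes this alike can be shared out wrongly, so their counts were also summed. The sum was higher with shRBM10#1 (log2 FC 0.35 ± 0.073, FDR = 0.00715), lower with shRBM10#2 (-0.29 ± 0.073, FDR = 0.0121) and differed between the shRNAs (-0.64 ± 0.073, FDR = 0.000204). Without shScr library 1 the rise of HSPA1B with shRBM10#1 was 0.20 (FDR = 0.114), without either shRBM10#2 library it was 0.29 and 0.28 (FDR = 0.0515 and 0.0582), and without shRBM10#2 library 2 the fall of HSPA1B was -0.31 (FDR = 0.098). The fall of HSPA1A was -0.19 without shScr library 2 (FDR = 0.153), -0.35 without shRBM10#2 library 1 (FDR = 0.0516) and -0.17 without shRBM10#2 library 2 (FDR = 0.344). The difference between the shRNAs passed the threshold for both genes whichever library was left out. The shRBM10#2 libraries enter the rise of HSPA1B with shRBM10#1 only through the estimated spread, scaling and filter, which all conditions share.

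The promoters of these genes hold the letters that HSF1 is known to bind, and their sequences are shown here because members with such letters were among those called. Members that were not called held such letters too, and a link between the letters and the calls was not tested. The 250 bases before each RefSeq start site (GRCh38.p14) were searched on both strands for GAANNTTC and TTCNNGAA, the head-to-head and tail-to-tail arrangements of the HSF1 repeat unit, each of which reads the same on the other strand. Of the 67 members, 58 had a promoter in the RefSeq table, and 20 of them (34.48%) held either motif in at least 1 promoter, against 13.96% of the 27305 genes in the table. A run of 3 alternating units was in the promoters of 10.34% of members and 0.56% of all genes. Of the 20 members that were called in any comparison and had a promoter entry, 8 held a motif, and the stretch around it is given for each, with the motifs in capitals, 5′ to 3′ along the gene's strand.
HSPA1A (chr6:31815417-31815464, plus strand): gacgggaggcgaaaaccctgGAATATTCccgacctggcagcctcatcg
HSPA1B (chr6:31827613-31827660, plus strand): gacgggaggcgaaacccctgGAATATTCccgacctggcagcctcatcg
HSP90AB1 (chr6:44247758-44247863, plus strand): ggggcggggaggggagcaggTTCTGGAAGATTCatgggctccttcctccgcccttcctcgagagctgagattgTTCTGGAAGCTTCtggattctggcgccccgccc
HSPB1 (chr7:76302471-76302518, plus strand): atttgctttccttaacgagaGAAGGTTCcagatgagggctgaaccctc
HSPB8 (chr12:119178823-119178870, plus strand): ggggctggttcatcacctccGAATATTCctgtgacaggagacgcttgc
DNAJB1 (chr19:14518417-14518494, minus strand): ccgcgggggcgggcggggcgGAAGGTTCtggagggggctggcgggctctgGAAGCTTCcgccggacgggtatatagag
DNAJB6 (chr7:157336853-157336905, plus strand): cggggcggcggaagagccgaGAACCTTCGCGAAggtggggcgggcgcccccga
DNAJC15 (chr13:43023377-43023424, plus strand): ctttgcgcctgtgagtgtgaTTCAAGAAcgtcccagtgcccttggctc
In HSPA1A and HSPA1B the same letters stand 106 and 105 bases before the start. Capitals longer than 8 letters, in HSP90AB1 and DNAJB6, are motifs that overlap. HSP90AB1 and DNAJB1 also have other RefSeq start sites, whose promoters had no match. The stretch of HSP90AB1 lies before the last of its start sites along the gene. The 12 other called members with an entry, HSPH1 and HSPE1 among them, had no match in this window. The run of 3 alternating units was in HSP90AB1 and DNAJB6, which were called. It was also in HSP90AA1, HSPA8, HSPD1 and HSPA6, which were called in none of the 3 comparisons. Members with a motif were called in either direction: with shRBM10#2, HSP90AB1, HSPB1, DNAJB1, HSPB8, HSPA1A and HSPA1B were lower and DNAJC15 was higher.

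The other HSP70 genes that were called are less abundant. HSPA2 (chr14:64535905-64546173), an HSP70 best known from the testis, had 14.8 and 16.4 CPM in shScr, 22.1 and 27.2 CPM for shRBM10#1 and 14.7 and 14.4 CPM for shRBM10#2. Both shRBM10#1 libraries were above the rest, and it rose with shRBM10#1 (log2 FC 0.66 ± 0.11 (SE), FDR = 0.00141), whereas with shRBM10#2 the log2 FC was -0.10 ± 0.11, FDR = 0.53. The difference between the shRNAs was -0.76 ± 0.11, FDR = 0.000541, the largest of a called member in size. HSPA13 (chr21:14371115-14383484), an HSP70 relative of the ER, had 35.5 and 36.2 CPM in shScr, 35.8 and 35.5 CPM for shRBM10#1 and 47.3 and 43.6 CPM for shRBM10#2. It rose with shRBM10#2 (log2 FC 0.34 ± 0.072 (SE), FDR = 0.00485), its shRBM10#1 libraries lay next to the shScr libraries, and leaving out shRBM10#2 library 1 gave 0.28 (FDR = 0.0974). HSPA14, which works at the ribosome with DNAJC2, was just inside the threshold with shRBM10#2 (log2 FC 0.21 ± 0.073 (SE), FDR = 0.04998), and is named after its values were seen. That call was lost with DESeq2 (FDR = 0.0834) or its size factors (FDR = 0.0544) and without either shScr or either shRBM10#2 library (FDR = 0.124 to 0.311). The constitutive HSPA8, the main HSP70 of unstressed cells, had 1031 and 1176 CPM in shScr, 1103 and 1106 CPM for shRBM10#1 and 1172 and 1088 CPM for shRBM10#2, and the mitochondrial HSPA9 had 454 and 455 CPM in shScr, 459 and 406 CPM for shRBM10#1 and 453 and 467 CPM for shRBM10#2. Neither was called in any comparison, with log2 FC values of 0.0011 ± 0.074 and 0.034 ± 0.074 for HSPA8 and -0.071 ± 0.07 and 0.018 ± 0.07 for HSPA9 with shRBM10#1 and shRBM10#2. HSPA6, a strictly inducible HSP70, was at 0.46 and 0.96 TPM in the shScr libraries.

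HSPH1 (chr13:31134974-31162388), the HSP110 that exchanges nucleotide on HSP70, was lower with both shRNAs. It had 238 and 266 CPM in shScr, 218 and 191 CPM for shRBM10#1 and 215 and 194 CPM for shRBM10#2. The groups did not overlap with shScr, as for 53.6% and 66.6% of all genes tested, and the shRNA libraries lay in the same range. The log2 FC was -0.30 ± 0.083, FDR = 0.0289 with shRBM10#1 and -0.30 ± 0.083, FDR = 0.0183 with shRBM10#2, and the difference between them was -0.0011 ± 0.083. The calls depended on shScr library 2, the library with short fragments, in which HSPH1 was highest. Without it the values were -0.22 (FDR = 0.216) and -0.22 (FDR = 0.138). Leaving out shRBM10#1 library 2 ended the call with shRBM10#1 (log2 FC -0.21), and leaving out either shRBM10#2 library ended both calls. The shRBM10#2 libraries enter the call with shRBM10#1 only through the estimated spread, scaling and filter, which all conditions share. With the offset for effective length, which takes in fragment length, HSPH1 stayed called with both shRNAs. With the replicate number also added to the fit, the call with shRBM10#1 was lost. HSPA4, the most abundant gene of this type, had log2 FC values of -0.02 ± 0.079 and -0.0064 ± 0.079, and HSPA4L of -0.11 ± 0.15 and 0.24 ± 0.15, none called.

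One of the HSP90 genes was called. HSP90AB1 (chr6:44246166-44253888), the constitutive HSP90, had 2610.2 and 2575 CPM in shScr, 2531 and 2407 CPM for shRBM10#1 and 2166 and 2169 CPM for shRBM10#2. It fell with shRBM10#2 (log2 FC -0.26 ± 0.062 (SE), FDR = 0.00946) and had -0.07 ± 0.062, FDR = 0.492 with shRBM10#1. HSP90AA1 (chr14:102080738-102139699), the more inducible HSP90, had 4647 and 5318 CPM in shScr, 5041 and 4497 CPM for shRBM10#1 and 4883 and 4832 CPM for shRBM10#2. Its shScr libraries were farther apart than any of the group means, and its log2 FC was -0.063 ± 0.078 with shRBM10#1 and -0.037 ± 0.078 with shRBM10#2, neither called. The difference between the HSP90 genes was not tested. Without either shRBM10#2 library the fall of HSP90AB1 was no longer past the threshold (-0.26 and -0.26, FDR = 0.119 and 0.129).

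The genes of the mitochondrial chaperonin lie head to head on chromosome 2, and one of them was called. HSPE1 (chr2:197499994-197503457), which encodes the HSP10 lid, had 277 and 270.4 CPM in shScr, 266 and 269.6 CPM for shRBM10#1 and 321 and 319.9 CPM for shRBM10#2. Both shRBM10#2 libraries were above the other 4, with log2 FC 0.23 ± 0.06 (SE), FDR = 0.0153 against shScr and 0.26 ± 0.06, FDR = 0.00804 against shRBM10#1. HSPD1 (chr2:197486581-197516737), which encodes the HSP60 barrel, had 1346 and 1395 CPM in shScr, 1373 and 1223 CPM for shRBM10#1 and 1272 and 1293 CPM for shRBM10#2, with log2 FC values of -0.079 ± 0.069 and -0.096 ± 0.069 that were not called. The difference between these genes was not tested. Without shScr library 2 the rise of HSPE1 was 0.21 (FDR = 0.0627), and without either shRBM10#2 library its FDR was 0.156 and 0.15. A readthrough gene, HSPE1-MOB4, is listed apart in the tables and shares sequence with HSPE1.

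The small heat shock proteins held the largest fall of a called member. HSPB8 (chr12:119178642-119221131), which with BAG3 and HSP70 sends misfolded proteins to autophagy, had 12.3 and 9.96 CPM in shScr, 5.34 and 5.21 CPM for shRBM10#1 and 7.97 and 7.70 CPM for shRBM10#2. Every shRNA library was below both shScr libraries, and the shRBM10#1 libraries were lowest. It fell with shRBM10#1 (log2 FC -1.08 ± 0.13 (SE), FDR = 0.000218) and with shRBM10#2 (log2 FC -0.51 ± 0.13 (SE), FDR = 0.0115), and the shRNAs differed (0.57 ± 0.13, FDR = 0.00872). RBM10 itself was lower with shRBM10#2 than with shRBM10#1, the reverse order. The fall with shRBM10#1 passed the FDR threshold in all 13 alternatives that kept it (other tools, filters and scalings, and each library left out) (-1.22 to -0.92). That with shRBM10#2 was lost without shScr library 1 (-0.35, FDR = 0.109) and without either shRBM10#2 library (-0.53 and -0.48, FDR = 0.07 and 0.107).

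HSPB1 (chr7:76302544-76304295), also called HSP27 and abundant in epithelial cells, had 455 and 389 CPM in shScr, 486 and 506 CPM for shRBM10#1 and 356 and 366 CPM for shRBM10#2. It was highest with shRBM10#1 and lowest with shRBM10#2, as for HSPA1A and HSPA1B. The log2 FC was 0.23 ± 0.076, FDR = 0.0598 with shRBM10#1 and -0.23 ± 0.076, FDR = 0.0447 with shRBM10#2, and the shRNAs differed by -0.46 ± 0.076, FDR = 0.00135, a call that held in all 13 alternatives. The fall with shRBM10#2 was lost without shScr library 1 (-0.11) and without either shRBM10#2 library. It was also lost when effective length was offset (-0.21, FDR = 0.121). HSPB1 has 1 isoform, so its effective length varied between libraries with fragment length alone. HSPB11 (chr1:53916574-53945929), despite its name a subunit of the intraflagellar transport machinery of cilia, had 37.3 and 35.9 CPM in shScr, 36.5 and 38.9 CPM for shRBM10#1 and 52.6 and 53.2 CPM for shRBM10#2. Both shRBM10#2 libraries were above the other 4. It rose with shRBM10#2 (log2 FC 0.53 ± 0.07 (SE), FDR = 0.000435), the smallest FDR of any member in that comparison, and had 0.043 ± 0.071, FDR = 0.739 with shRBM10#1. The rise held in all 13 alternatives (0.50 to 0.57). HSPB6 was at 0.52 and 0.57 TPM in shScr, and the other HSPB members did not pass the filter.

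**Figure D3:**
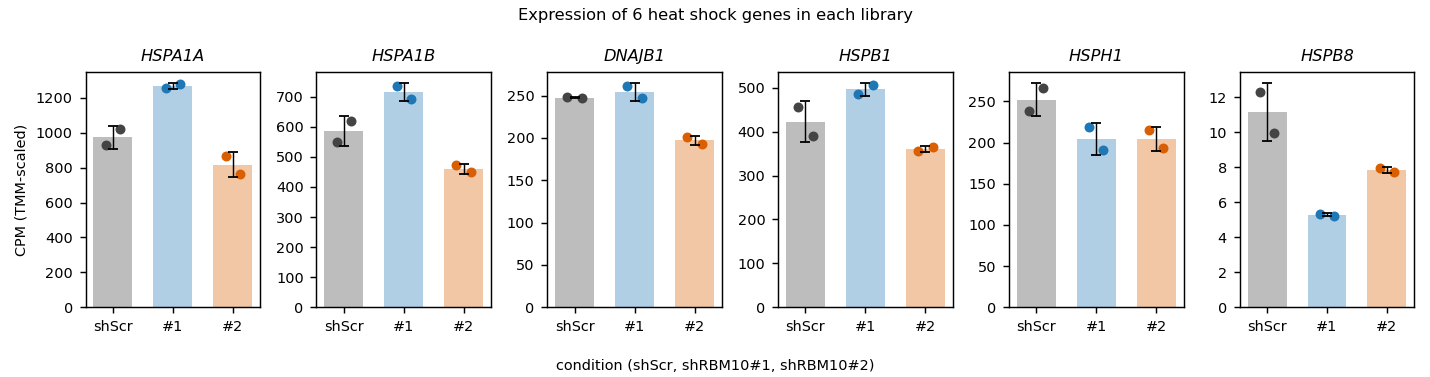
CPM of 6 heat shock genes in each condition. Bars are means, dots the 2 libraries and whiskers the SD. HSPA1A, HSPA1B and HSPB1 are highest with shRBM10#1 and lowest with shRBM10#2, DNAJB1 is low with shRBM10#2, and HSPH1 and HSPB8 are low with both.

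No DNAJA gene was called by edgeR or DESeq2 in the 3 comparisons, and 1 of the 3 tested had an unadjusted p below 0.05, between the shRNAs. DNAJA1, a farnesylated partner of cytosolic HSP70, had 121 and 128 CPM in shScr, 133 and 139 CPM for shRBM10#1 and 136 and 126 CPM for shRBM10#2, with log2 FC values of 0.13 ± 0.066 and 0.076 ± 0.066. DNAJA2, its close relative, had 202 and 206 CPM in shScr, 199 and 194 CPM for shRBM10#1 and 190.1 and 188 CPM for shRBM10#2, with log2 FC values of -0.055 ± 0.06 and -0.11 ± 0.06. The mitochondrial DNAJA3 had 0.08 ± 0.061 and -0.063 ± 0.061.

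Among the DNAJB genes, the main stress-inducible one was lower with shRBM10#2. DNAJB1 (chr19:14514770-14529770), the partner with which HSP70 refolds and disaggregates proteins, had 248 and 247 CPM in shScr, 262 and 247 CPM for shRBM10#1 and 201 and 193 CPM for shRBM10#2. The shRBM10#2 libraries were below the other 4, which overlapped. It fell with shRBM10#2 (log2 FC -0.33 ± 0.063 (SE), FDR = 0.00302) and had 0.039 ± 0.063, FDR = 0.732 with shRBM10#1. Without shRBM10#2 library 2 the fall was -0.30 (FDR = 0.0822). DNAJB2 (chr2:219279267-219286900), which binds ubiquitin and passes HSP70 clients to the proteasome, had 55.9 and 49.1 CPM in shScr, 50.1 and 58.2 CPM for shRBM10#1 and 37.2 and 38.4 CPM for shRBM10#2. It fell with shRBM10#2 (log2 FC -0.47 ± 0.088 (SE), FDR = 0.00256), in all 13 alternatives (-0.57 to -0.38), and had 0.046 ± 0.087, FDR = 0.777 with shRBM10#1.

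DNAJB6 (chr7:157335381-157417439), which keeps polyglutamine proteins from aggregating, was the DNAJB gene called with shRBM10#1. It had 137 and 138 CPM in shScr, 106 and 111 CPM for shRBM10#1 and 156 and 153 CPM for shRBM10#2. The shRBM10#1 libraries were lowest and the shRBM10#2 libraries highest. The log2 FC was -0.34 ± 0.062, FDR = 0.00268 with shRBM10#1, 0.17 ± 0.061, FDR = 0.061 with shRBM10#2 and 0.51 ± 0.061, FDR = 0.000238 between them. DNAJB14 and DNAJB12 are ER membrane proteins with their J domain in the cytosol. DNAJB14 (chr4:99896248-99946726) had 28.8 and 32.4 CPM in shScr, 30.8 and 35.1 CPM for shRBM10#1 and 38.5 and 37.5 CPM for shRBM10#2, a call with shRBM10#2 (log2 FC 0.31 ± 0.086 (SE), FDR = 0.0189). The log2 FC turned to -0.084 (FDR = 0.605) once the mean effective length of its isoforms in each library was offset. That mean is weighted by TPM and leans on the isoform NM_001278311, with only 20 to 86 expected counts per library. NM_001031723, with 89.4% to 95.5% of the gene's counts, had log2 FC 0.40 ± 0.11 (SE) with shRBM10#2 (FDR = 0.115). The call of DNAJB14 was also lost without shScr library 1 or either shRBM10#2 library. DNAJB12 (chr10:72332830-72355230) differed between the shRNAs (log2 FC -0.31 ± 0.072 (SE), FDR = 0.00843), with 77.3 and 77.3 CPM in shScr, 79.7 and 88.4 CPM for shRBM10#1 and 70.4 and 65.5 CPM for shRBM10#2, and not from shScr. Without shRBM10#2 library 2 that difference was -0.25 (FDR = 0.158).

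The DNAJC genes share little but the J domain, and 24 of 25 were tested. With shRBM10#1, 1 rose and 1 fell. DNAJC13 (chr3:132417526-132539032), a coat regulator of endosomes, had 85.9 and 93.9 CPM in shScr, 106 and 106 CPM for shRBM10#1 and 104 and 97.2 CPM for shRBM10#2 and rose with shRBM10#1 (log2 FC 0.24 ± 0.069 (SE), FDR = 0.0379), with 0.17 ± 0.069, FDR = 0.0961 for shRBM10#2. DNAJC6 (chr1:65248219-65415869), auxilin, which with HSPA8 strips clathrin from vesicles, had 14.0 and 12.3 CPM in shScr, 10.5 and 9.58 CPM for shRBM10#1 and 12.9 and 13.3 CPM for shRBM10#2. Its shRBM10#1 libraries were below the other 4, and it fell with shRBM10#1 (log2 FC -0.39 ± 0.11 (SE), FDR = 0.0286), with -0.0024 ± 0.1 for shRBM10#2. Both calls were lost without shScr library 1 (log2 FC 0.17 for DNAJC13 and -0.30 for DNAJC6) or shRBM10#1 library 2. Both were also lost without either shRBM10#2 library, which enters these calls only through the shared spread, scaling and filter. DESeq2 did not call DNAJC6 (FDR = 0.056), and the offset for effective length ended the call of DNAJC13 (FDR = 0.0679).

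With shRBM10#2, 2 DNAJC genes rose and 2 fell. DNAJC5 (chr20:63895182-63936031), the cysteine string protein of secretory vesicles, had 278 and 299.5 CPM in shScr, 278 and 269.6 CPM for shRBM10#1 and 241 and 230.3 CPM for shRBM10#2 and fell (log2 FC -0.29 ± 0.065 (SE), FDR = 0.0068). DNAJC7 (chr17:41976433-42021376), whose TPR repeats hold HSP70 and HSP90 together, had 97.1 and 92.1 CPM in shScr, 95.9 and 93.0 CPM for shRBM10#1 and 80.3 and 81.4 CPM for shRBM10#2 and also fell (log2 FC -0.23 ± 0.064 (SE), FDR = 0.0208). DNAJC15 (chr13:43023203-43114224), a J protein of the mitochondrial inner membrane, had 24.2 and 24.9 CPM in shScr, 23.8 and 25.4 CPM for shRBM10#1 and 29.4 and 30.5 CPM for shRBM10#2 and rose (log2 FC 0.29 ± 0.077 (SE), FDR = 0.0169). DNAJC1, an ER membrane J protein named after its values were seen, also rose (log2 FC 0.30 ± 0.1 (SE), FDR = 0.0447), with 0.28 ± 0.1, FDR = 0.0925 for shRBM10#1. Each of these 4 calls was lost without either shRBM10#2 library (FDR = 0.0612 to 0.309), those of DNAJC7, DNAJC15 and DNAJC1 also without shScr library 1 (FDR = 0.0747 to 0.128), and that of DNAJC1 without shScr library 2 (FDR = 0.147). The fall of DNAJC7 was also lost when effective length was offset (-0.18, FDR = 0.0739), as was the rise of DNAJC1 (FDR = 0.0564), which DESeq2 did not call either (FDR = 0.0849). DNAJC11, a mitochondrial protein named likewise, differed between the shRNAs alone (log2 FC -0.22 ± 0.074 (SE), FDR = 0.043). The members of the nucleus and spliceosome (DNAJC2, DNAJC8, DNAJC9, DNAJC17 and DNAJC21) had no call in any comparison by edgeR or DESeq2, with 1 at an unadjusted p below 0.05 for shRBM10#2 against shScr and 1 between the shRNAs.

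**Figure D4:**
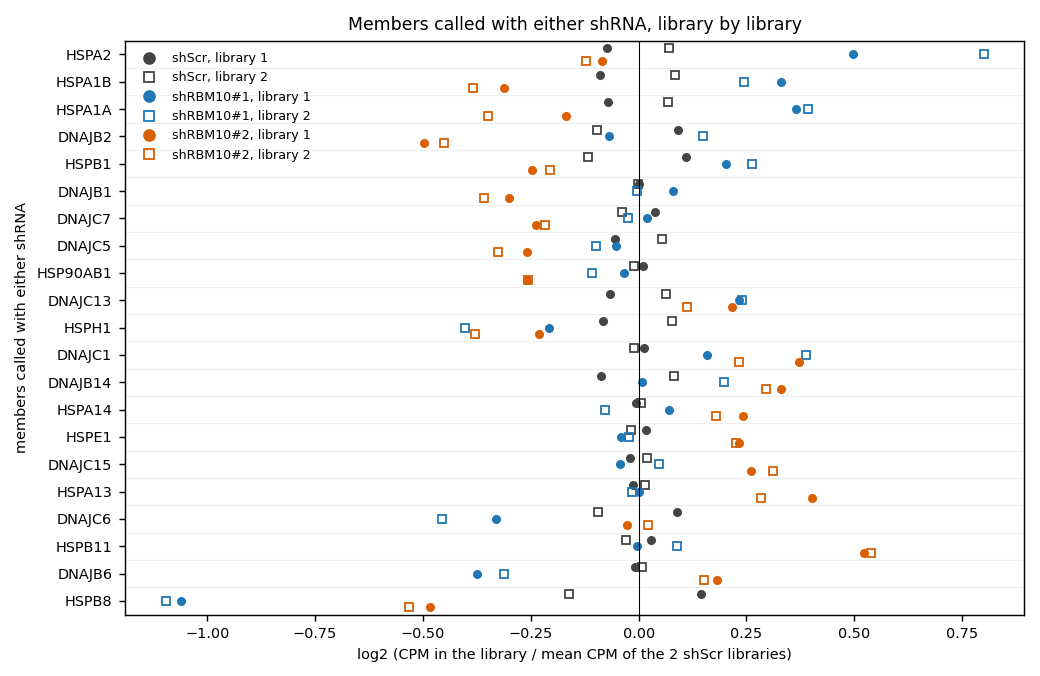
log2 ratio of CPM in each library to the mean of the 2 shScr libraries, for the 21 members called with either shRNA, ordered by the difference between the shRNAs. HSPA2, HSPA1B and HSPA1A are at the top, with shRBM10#1 to the right and shRBM10#2 to the left of 0, and HSPB8 is at the bottom, with both to the left.

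Isoforms were then compared, since RBM10 is a splicing factor. Of the 116 member isoforms, 89 passed the filter. None was called with shRBM10#1 by edgeR (10 at an unadjusted p below 0.05 and 7 called by DESeq2), where 0.0302% of all isoforms were called. With shRBM10#2, 2 were called against 2.26% of all isoforms, and between the shRNAs 6 were called against 2.25%. DESeq2 called 20 and 22 there, and a minimum of 10 counts in every library gave 9 and 12. The shares of all isoforms given here are those of the main edgeR fit. They were not counted for DESeq2 or for that minimum, so these counts have no share beside them. No member isoform met both criteria of the study, which 0.0227%, 0.491% and 0.359% of isoforms did, and in the pooled comparison no isoform at all was called (0% under either rule), with 6 member isoforms at an unadjusted p below 0.05. Isoform usage, the split of a gene's counts among its isoforms, was testable in 22 members. It was called in none with shRBM10#1 (0.172% of genes; 2 members at an unadjusted p below 0.05), and in DNAJC7 alone with shRBM10#2 (2.75% of genes) and between the shRNAs (1.92%).

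The estimated split of DNAJC7 between isoforms with different annotated starts differed with shRBM10#2. Start sites themselves were not measured. Its isoforms NM_003315 and NM_001144766 have the same exons 2 to 13 in GENCODE 29. They differ in exon 1, which lies at chr17:42017340-42017653 in the former and chr17:42017040-42017151 in the latter, with start sites 502 nt apart. They also differ in the end of exon 14, at 41976433 in the former and 41976479 in the latter. The coding sequence begins in exon 1 of NM_003315 and gives 494 codons, and begins in exon 3 of NM_001144766 and gives 438. The sequences below are the last 15 bases of each exon 1, in capitals, and the 15 bases of the shared exon 2 that follow, from the GENCODE 29 transcripts (GRCh38, minus strand).
NM_003315 junction: CCAAGAGGCGAAGAGggaagcagagacttt
NM_001144766 junction: GAGGTCTGGTGCGAGggaagcagagacttt
NM_001144766 held 4.0% and 3.2% of the DNAJC7 counts in shScr, 0.90% and 3.74% with shRBM10#1, and 25.2% and 28.1% with shRBM10#2. The 95% Wilson intervals were 23.6% to 26.8% and 26.6% to 29.7% in the shRBM10#2 libraries and reached no higher than 4.74% elsewhere, and they cover counting error only. The usage FDR was 0.0306 against shScr and 0.0207 against shRBM10#1. NM_003315 had 93.4 and 89.1 CPM in shScr, 94.6 and 89.3 CPM for shRBM10#1 and 59.8 and 58.6 CPM for shRBM10#2 and fell with shRBM10#2 (log2 FC -0.62 ± 0.055 (SE), FDR = 0.0369). NM_001144766 had 3.89 and 2.94 CPM in shScr, 0.861 and 3.48 CPM for shRBM10#1 and 20.2 and 22.9 CPM for shRBM10#2, and its log2 FC of 2.66 ± 0.6 with shRBM10#2 had an FDR of 0.0865. This isoform is in the list the study drew from the same libraries, which is not independent evidence. The usage call against shScr was lost without any shScr or shRBM10#2 library (FDR = 0.170 to 0.258), and that against shRBM10#1 without shRBM10#1 library 1 or either shRBM10#2 library (FDR = 0.129 to 0.163).

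DNAJB6 had a smaller share of its long form in both shRBM10#1 libraries, in a usage test that did not pass the threshold. NM_058246 encodes the long form (326 codons), which is known to be nuclear, and NM_005494 the short form (241 codons), which is also cytosolic. Both run to exon 8, which starts at 157385541 of chromosome 7 and is spliced at 157385611 to exons 9 and 10 in the long form, and runs on to 157386324 in the short form. The last 15 shared bases are given below with the 15 that follow in capitals, from the GENCODE 29 transcripts (GRCh38, plus strand).
NM_058246, spliced to exon 9: ccttaacaataaatgGTGTGGCCGACGACG
NM_005494, read on past the splice site: ccttaacaataaatgGTAAGGAGCAGCTGC
NM_058246 held 68.3% and 67.7% of the DNAJB6 counts in shScr, 52.0% and 53.8% with shRBM10#1, and 67.0% and 62.0% with shRBM10#2. It had 93.8 and 93.6 CPM in shScr, 55.1 and 59.7 CPM for shRBM10#1 and 105 and 95.1 CPM for shRBM10#2, with log2 FC -0.71 ± 0.071 (SE), FDR = 0.06 for shRBM10#1. Between the shRNAs it was called (0.80 ± 0.071, FDR = 0.0329). NM_005494 had 43.4 and 44.7 CPM in shScr, 50.8 and 51.3 CPM for shRBM10#1 and 51.7 and 58.2 CPM for shRBM10#2. Both shRBM10#1 libraries were below shScr in the long form and above shScr in the short form, for which the log2 FC was 0.21 ± 0.073 (FDR = 0.292). The usage FDR with shRBM10#1 was 0.065, limma's diffSplice gave 0.00838 and a minimum of 5% of the gene's counts gave 0.0494. With the replicate number added to the fit the usage FDR was 0.238. It did not pass the threshold whichever library was left out.

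**Figure D5:**
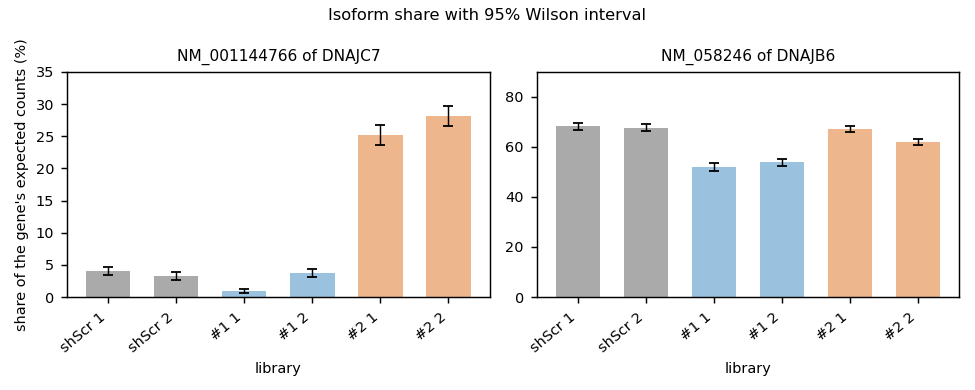
Share of the expected counts of DNAJC7 given by NM_001144766 (left) and of DNAJB6 given by NM_058246 (right) in each of the 6 libraries, with 95% Wilson intervals for counting error. The left panel stands at 25.2% and 28.1% in the shRBM10#2 libraries, and the right panel at 52.0% and 53.8% in the shRBM10#1 libraries.

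The remaining called isoforms were the main isoforms of genes described above and were named after their values were seen: HSPB11 NM_016126 with shRBM10#2 (log2 FC 0.53 ± 0.062 (SE), FDR = 0.0391) and, between the shRNAs, HSPA1A NM_005345 (-0.63 ± 0.081), HSPA1B NM_005346 (-0.63 ± 0.074), HSPB11 NM_016126 (0.49 ± 0.062) and DNAJB1 NM_006145 (-0.37 ± 0.053). With 1 library left out, no member isoform was called between the shRNAs by edgeR, whichever library it was, and with shRBM10#2 the sole setting with calls was that without shRBM10#1 library 2, where NM_003315 and NM_001144766 of DNAJC7 were called and NM_016126 was not. In DNAJB14 the isoform split of RSEM varied. By TPM, NM_001278311 was 37.58% and 43.99% of the gene in shScr, 56.46% and 42.23% with shRBM10#1, and 15.76% and 24.33% with shRBM10#2. The shares of DNAJC7 and DNAJB6 above are of counts instead. By counts, NM_001278311 held only 4.274% and 6.098% in shScr, 8.94% and 5.259% with shRBM10#1, and 1.401% and 2.434% with shRBM10#2. These shares rest on 20 to 86 expected counts per library, and the usage of DNAJB14 was not called.

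The regulators and partners of these chaperones were counted from lists of known members. Of 4 tested genes of the heat shock factors, counting their binding protein HSBP1, none was called with shRBM10#1 by edgeR or DESeq2 (0 at an unadjusted p below 0.05), and 1 rose and 1 fell with shRBM10#2. HSF1, the activator of the heat shock response, had 171 and 172 CPM in shScr, 172 and 163 CPM for shRBM10#1 and 135 and 137 CPM for shRBM10#2 and fell (log2 FC -0.33 ± 0.062 (SE), FDR = 0.00259), and HSF2, its relative, had 7.73 and 6.44 CPM in shScr, 6.59 and 7.33 CPM for shRBM10#1 and 10.9 and 10.5 CPM for shRBM10#2 and rose (log2 FC 0.59 ± 0.12 (SE), FDR = 0.00492). Of 23 known HSF1 targets, of which 14 are members, 2 were higher and 1 lower with shRBM10#1, and 1 was higher and 10 lower with shRBM10#2, where 12% of all genes were higher and 13.9% lower. The 10 lower targets became 7 without shScr library 1, 6 without shScr library 2, 3 without shRBM10#2 library 1 (DNAJB1 and HSPA1B the members among them) and 1 without shRBM10#2 library 2, which is no member. The shares of all genes called in those fits were not counted. In the main fit, the lower ones with shRBM10#2 were the members DNAJB1, HSPA1A, HSPA1B, HSPB1, HSPH1 and HSP90AB1, and 4 others, among them SERPINH1, the collagen chaperone (log2 FC -0.25 ± 0.064 (SE), FDR = 0.0126). HSPE1 was the higher one. The median log2 FC of the 23 was 0.0011 with shRBM10#1 and -0.081 with shRBM10#2, beside 0.0079 and 0.0054 for all genes.

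Over all genes tested, 14.0% were called with shRBM10#1 and 25.9% with shRBM10#2. Of 11 nucleotide exchange factors and BAG genes, 1 was higher and 1 lower with shRBM10#1, and 2 were lower with shRBM10#2, among them BAG6, a holdase for tail-anchored proteins (log2 FC -0.42 ± 0.062 (SE), FDR = 0.000699), and HYOU1, the HSP110 of the ER (log2 FC -0.30 ± 0.078 (SE), FDR = 0.0153). Of 16 HSP90 paralogs and co-chaperones, none was called with shRBM10#1 by edgeR or DESeq2 (1 at an unadjusted p below 0.05), and 2 were higher and 1 lower with shRBM10#2. The lower one was STIP1, which links HSP70 to HSP90 (log2 FC -0.26 ± 0.073 (SE), FDR = 0.0208). Of 14 TRiC and prefoldin subunits, which fold actin and tubulin, 1 was lower with shRBM10#1, TCP1 (log2 FC -0.23 ± 0.067 (SE), FDR = 0.035), and 2 were higher and 1 lower with shRBM10#2, PFDN4 with the smallest FDR (log2 FC 0.59 ± 0.097 (SE), FDR = 0.00132). Of 9 disaggregase and sequestration genes, 2 were lower with shRBM10#1 and 3 with shRBM10#2, LONP1, a protease of the mitochondrial matrix, among them (log2 FC -0.49 ± 0.07 (SE), FDR = 0.000643). By place in the cell, none of the 10 mitochondrial, 9 ER and membrane or 5 nuclear members was called with shRBM10#1 by edgeR or DESeq2 (1 ER and membrane member at an unadjusted p below 0.05). With shRBM10#2, 2 mitochondrial members (HSPE1 and DNAJC15) and 3 ER and membrane members (HSPA13, DNAJB14 and DNAJC1) were higher. As given above, the offset for effective length ended the call of DNAJC1. It also turned the log2 FC of DNAJB14 negative, leaning on an isoform with few counts. Of the 4 ER chaperones left out by the rule, none was called with shRBM10#1 by edgeR or DESeq2 (0 at an unadjusted p below 0.05) and 1 was lower with shRBM10#2.

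The counts of called members depended on the libraries, with 2 per condition. The estimated spread, scaling and filter are shared by all conditions, so leaving out a library also moved comparisons that it is not part of. The shares of all genes called with a library left out were not counted, so the counts below have no share beside them. Without shScr library 2, 7 members were called with shRBM10#1, 13 with shRBM10#2 and 18 between the shRNAs. Without shScr library 1 the counts were 7, 10 and 18. Without shRBM10#1 library 2, 5 were called with shRBM10#1. Without shRBM10#2 library 1 the counts were 4, 4 and 9, and without shRBM10#2 library 2 they were 4, 3 and 8. Every member called with shRBM10#2 without either of its libraries was among the 17, and each fit then rests on a lone shRBM10#2 library that is assumed to vary like the other conditions. Between the shRNAs, HSPA1A, HSPA1B, HSPA2, HSPB1, HSPB11, DNAJB2 and DNAJB6 were called whichever library was left out, and each of the other 12 was lost without at least 1 library, shRBM10#2 library 1 or 2 among them.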

How the data were processed

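RNA-Seq libraries of PC-9 cells were analyzed, 2 for each of 3 shRNAs. Per the submitters' processing notes, the tools were STAR 2.4, RSEM 1.2.29 and edgeR with the hg19 build, and the strand protocol is not given in the sources used here. The authors deposited, for each RefSeq isoform and library, an expected count, TPM and FPKM, and the percent of a gene's abundance that each isoform held. FPKM was not used here. Isoform counts were summed by gene symbol and rounded. Main tests were edgeR 4.0.16 quasi-likelihood fits in R 4.3.3 (TMM, filterByExpr, 1 coefficient per condition over 6 libraries, Benjamini-Hochberg FDR below 0.05 over all features), with diffSpliceDGE (Simes) for usage. DESeq2 1.42.0 and limma 3.58.1 were alternatives. The procedures were tested on simulated data. Fragment length was implied by length minus effective length. Replicates differed by more than sampling noise (chi-square per degree of freedom 9.62, 12.2 and 3.22 for shScr, shRBM10#1 and shRBM10#2).

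The members and lists were chosen with earlier results of these data known. Genes named were RBM10, the 2 members of each class with the highest TPM in shScr, the 12 with the smallest FDR among those called in each comparison, isoforms past both criteria, members with a usage call, DNAJC7, HSPA1A and HSPA1B, up to 3 genes per list, and any said to be named later. Coordinates and sequences are those of GRCh38 (RefSeq promoters and GENCODE 29), matched by symbol or identifier, since no hg19 genome was used here. Figures were drawn with matplotlib 3.10.9 in Python 3.11.15. Readthrough and antisense genes next to members (HSPE1-MOB4, DNAJC25-GNG10, HSPB2-C11orf52, DNAJC9-AS1, DNAJC27-AS1, DNAJB5-AS1 and DNAJB8-AS1) may share reads with them.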

Additional observations from a re-analysis of the deposited data

Results flagged for a closer look

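With 2 libraries per condition, single libraries were not tested as outliers. The difference between the shRNAs was tested directly, and 19 members and the isoform usage of DNAJC7 (FDR = 0.02067) differed, where 25.5% of all genes and 1.92% of genes in the usage test did. The log2 FC of shRBM10#2 minus shRBM10#1 was -0.76 for HSPA2, -0.64 for HSPA1B, -0.64 for HSPA1A, -0.52 for DNAJB2, -0.46 for HSPB1, -0.37 for DNAJB1, -0.31 for DNAJB12, -0.22 for DNAJC7, -0.22 for DNAJC11, -0.22 for DNAJC5 and -0.19 for HSP90AB1. It was 0.57 for HSPB8, 0.51 for DNAJB6, 0.49 for HSPB11, 0.39 for DNAJC6, 0.35 for HSPA13, 0.28 for DNAJC15, 0.26 for HSPE1 and 0.21 for HSPA14. RBM10 differed by -1.11 in the same comparison, and its part in these differences was not tested.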

How the results depend on the processing

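With each library left out in turn, the members called numbered 4 to 11 with shRBM10#1, 3 to 21 with shRBM10#2 and 8 to 19 between the shRNAs, called isoforms 0 to 2 with shRBM10#2 and 0 between the shRNAs, and members with a usage call 0 to 1 in both comparisons. The shares of all genes and isoforms called with a library left out were not counted. Adding an absolute log2 FC above 1 left 1, 0 and 0 genes and 0 isoforms. DESeq2 called 7, 20 and 22 isoforms in the 3 comparisons, and 1 gene (HSPB8) and 1 isoform (of HSPH1) in the pooled one. At least 10 counts in every library gave 2, 9 and 12 isoforms. The shares of all isoforms called by DESeq2 or with this minimum were not counted. The offset for effective length gave 1 isoform with shRBM10#2 and turned DNAJB14 with shRBM10#2 to -0.084. With the replicate block it gave 3 and 10 genes with the shRNAs, 0 isoforms, and -0.082 for DNAJB14. Same-numbered libraries did not deviate together (correlations -0.0193 to -0.00383), so the numbers were not taken to pair the libraries, and with the replicate block alone no isoform (0 with shRBM10#2 and 0 between the shRNAs) and no usage call (0) passed, while the gene counts stayed within 1.5 times and lost DNAJC13 with shRBM10#1 and DNAJC1, HSPA14 and HSPB1 with shRBM10#2, and DNAJC5, DNAJC11, HSP90AB1 and HSPA14 between the shRNAs. The mean of the shRNA coefficients called 7 members in the pooled comparison, where its share of all genes was not counted. limma's diffSplice gave 1 usage call with shRBM10#1 and 2 between the shRNAs, a minimum of 5% of the gene's counts gave 1 with shRBM10#1, and an FDR below 0.01 gave 0. Of single named values under the alternatives, 495 kept their direction and side of the threshold, 120 kept their direction and lost the call, and 2 reversed. The cause was not tested. The precision is limited by 2 libraries per condition.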
